A study of Mus musculus with 6 samples.

Results

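The genes described here are those of glycerophospholipid metabolism, the making, remodelling and breakdown of the phospholipids of cell membranes. They were taken by name from a fixed list, and all 47 have a row in the authors' deposited table, which holds 16426 genes. The study sequenced 6 liver RNA samples of male C57/BL mice. Per the labels, 3 samples form a model group that was given 20% carbon tetrachloride (CCl4), a solvent that liver enzymes turn into toxic radicals, for 10 weeks to cause liver fibrosis, and 3 form a normal group that was given saline in its place. The design text gives the route as intraperitoneal and also names a group treated with CCl4 and the flavonoid didymin, which was not analysed here. The sample titles call the normal samples wt and the CCl4 samples model. Beyond this, no genetic change, pooling or age is given in the labels.

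The authors' deposited table compares 3 libraries called ly_A with 3 called ly_B, and no label says which of them is the CCl4 group or that they are the labelled groups at all. Every difference is therefore given between ly_A and ly_B and not as an effect of CCl4. The single-library columns match no labelled sample and were not used in any calculation. No value per library, spread between libraries or read depth therefore stands beside a gene. A log2 fold change is the authors' fitted value, ly_A over ly_B, so that a positive value means higher in ly_A. Genes with an authors' adjusted p under 0.05 are called. Of 14114 genes tested by the authors, 35.8% were called: 18.1% were higher in ly_A, and 17.7% were higher in ly_B.

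Phosphatidylcholine and phosphatidylethanolamine are the main phospholipids of animal membranes. Both are built by activating the head group (choline or ethanolamine) with CTP and joining it to diacylglycerol, and the liver also makes phosphatidylcholine by methylating phosphatidylethanolamine. Phospholipases then cut acyl chains or head groups off, and acyltransferases put other acyl chains back, which sets how unsaturated the membrane is. In liver these lipids coat lipoproteins and are exported into bile.

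Among the members, 44 were tested in the authors' deposited table. Of these, 13 (29.5%) were higher in ly_A, against 18.1% of all tested genes, and 7 (15.9%) were higher in ly_B, against 17.7% of all tested genes. By kind of step, of 24 tested synthesis genes, 7 were higher in ly_A and 7 in ly_B, counted from the authors' deposited table. Of 20 tested remodelling and phospholipase genes, 6 were higher in ly_A and 0 in ly_B, by the same count. This contrast between kinds of step was noticed in these data and was not tested. The synthesis count stayed at 7 in each direction when p-values were adjusted over every row, but was uneven under the settings that follow. Synthesis genes numbered 4 on the ly_A side and 2 on the ly_B side when the adjusted p had to be under 0.01, 3 and 1 when a 2-fold difference was required as well, and 6 and 3 of 11 among those without an exon overlap with another gene, by the authors' deposited table. The median of the log2 fold changes in the authors' deposited table was 0.13 over the tested members and 0.07 over all tested genes, with medians of 0.01 for synthesis, 0.63 for remodelling and 0.36 for phospholipase genes. The members' median was 0.49 over the 26 tested members without an exon overlap and 0.06 after centring on the median of all tested genes, from the same table. No median was computed over all genes without an exon overlap. With a 2-fold difference required as well, 6 members were on the ly_A side and 1 on the ly_B side, against 10.9% and 7.85% of all tested genes in the authors' deposited table. At an adjusted p under 0.01, 8 members were on the ly_A side and 2 on the ly_B side, against 12.3% and 12.7% of all tested genes in that table. Chkb, Mboat2 and Pla2g4b carry an adjusted p of exactly 1 there, which marks rows left out of the adjustment, and have no call.

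**Figure D1:**
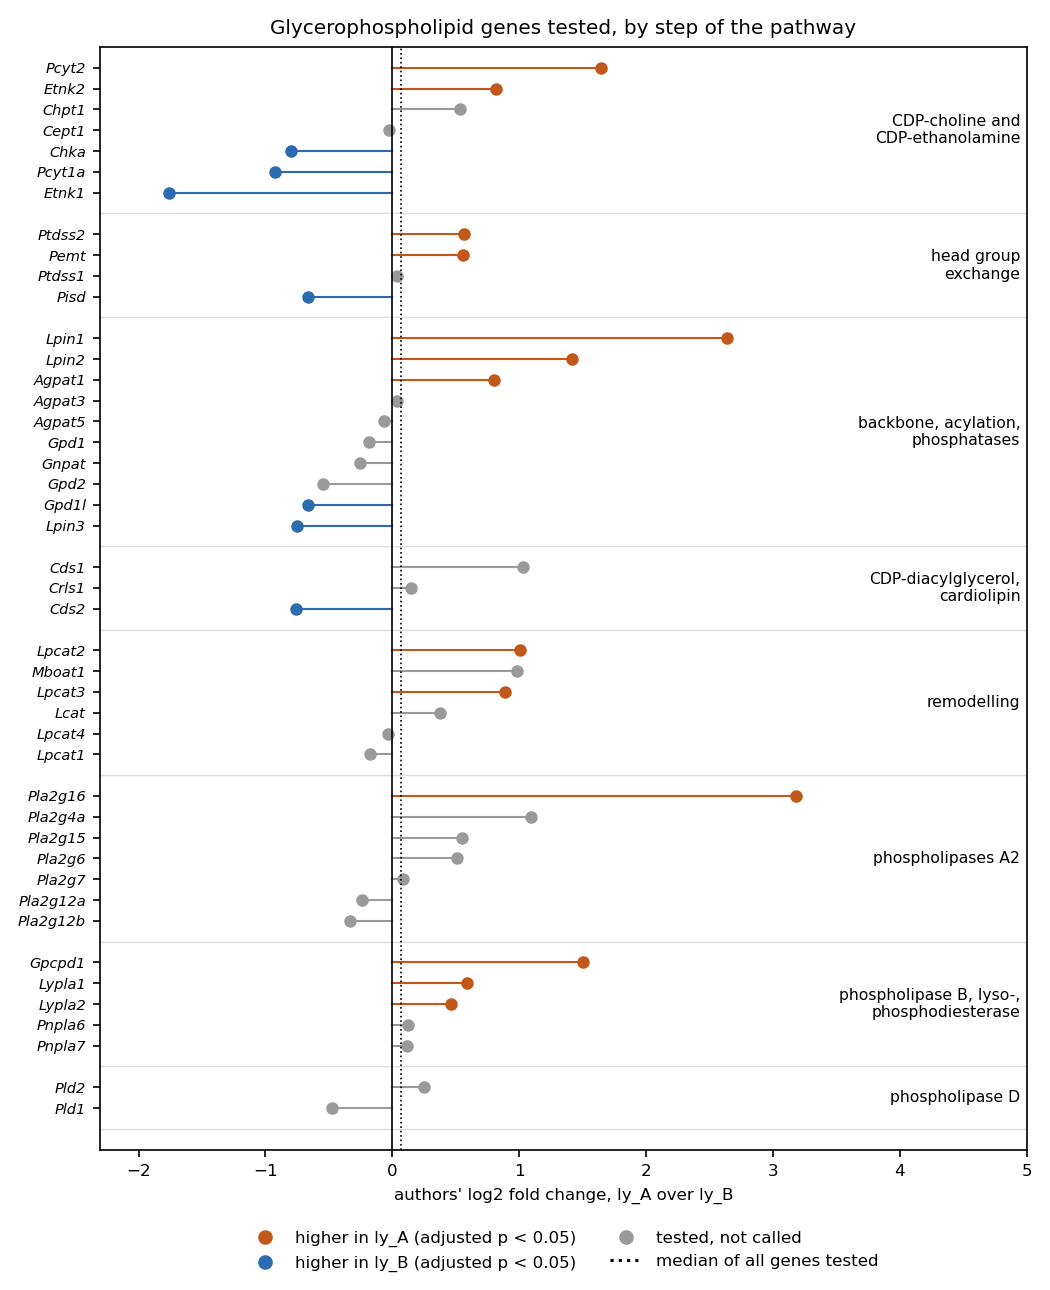
Authors' log2 fold change (ly_A over ly_B) of the 44 tested members, one point per gene, grouped by step from synthesis at the top to phospholipase D at the bottom. Orange points were higher in ly_A and blue points higher in ly_B at an adjusted p under 0.05, grey points were not called, and the dotted line is the median of all tested genes at 0.07. Blue points lie in the synthesis steps, and the farthest points are Pla2g16 at 3.18 and Etnk1 at -1.76.

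The head group branches held calls in opposite directions at the kinase step and at the cytidylyl transferase step. Etnk1, an ethanolamine kinase, was 3.39-fold higher in ly_B by the authors' deposited table (log2 -1.76, adjusted p = 1.3e-16). Its paralogue Etnk2 was 1.76-fold higher in ly_A in that table (log2 0.82, adjusted p = 0.0364). Pcyt2, the cytidylyl transferase that activates phosphoethanolamine, was 3.12-fold higher in ly_A by the authors' deposited table (log2 1.64, adjusted p = 1.56e-09). On the choline side the same step went the other way. Pcyt1a, which activates phosphocholine and is the rate-limiting enzyme of that branch, was 1.90-fold higher in ly_B by the authors' deposited table (log2 -0.92, adjusted p = 0.0216). Choline kinase, Chka, was 1.74-fold higher in ly_B in that table (log2 -0.80, adjusted p = 0.0379). When the adjusted p had to be under 0.01, the calls of Etnk2, Pcyt1a and Chka ended, and those of Etnk1 and Pcyt2 stayed. The enzymes of the last step were not called in the authors' deposited table: Chpt1, the choline phosphotransferase, stood at log2 0.54 (adjusted p = 0.124) and Cept1, which takes both head groups, at -0.02 (adjusted p = 0.937).

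The promoters of the ethanolamine kinases are shown because these paralogues were called in opposite directions. RefSeq windows of build GRCm38.p6 hold 250 bases before and 50 after a start site, written along the strand of the gene, and 39 of the 47 members have one or more. Etnk1 (chr6:143166980-143167279, plus strand) and Etnk2 (chr1:133363322-133363621, plus strand) have 1 window each. Capitals mark matches, on either strand, to 6 motifs searched: the E-box (CACGTG), the GC box (GGGCGG), the CCAAT box (CCAAT), the C/EBP-ATF response element (TGATGNAA), the sterol response element (TCACNCCAC) and the ER stress element. The ER stress element holds the CCAAT box within it.
Etnk1: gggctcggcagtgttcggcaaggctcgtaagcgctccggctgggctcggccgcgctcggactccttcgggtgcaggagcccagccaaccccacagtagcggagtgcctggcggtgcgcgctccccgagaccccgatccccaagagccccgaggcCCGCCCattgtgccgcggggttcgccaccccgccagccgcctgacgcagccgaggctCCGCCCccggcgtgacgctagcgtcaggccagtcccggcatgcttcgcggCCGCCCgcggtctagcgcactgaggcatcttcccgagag
Etnk2: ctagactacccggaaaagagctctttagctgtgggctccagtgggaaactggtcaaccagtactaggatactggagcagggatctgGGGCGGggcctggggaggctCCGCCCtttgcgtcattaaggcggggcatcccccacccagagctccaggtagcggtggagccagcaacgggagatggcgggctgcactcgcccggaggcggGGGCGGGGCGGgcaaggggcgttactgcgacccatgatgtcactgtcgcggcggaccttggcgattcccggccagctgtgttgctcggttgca
Etnk1 held 3 and Etnk2 held 4 matches, and in both windows these were all GC boxes. GC content was 73.7% in the Etnk1 window and 65.3% in that of Etnk2. A GC box was found in 34 of the 57 member windows (59.6%) and in 35.7% of all 32851 windows of the same length. A CCAAT box was found in 23 of the 57 member windows (40.4%) and in 37.4% of all windows. An E-box was in 6 of the 57 (10.5%) and in 7.15% of all windows, and the C/EBP-ATF response element in 2 (3.51%) and 3.97%. Counted by gene, with a match in at least 1 window, 7 of 9 members higher in ly_A held a GC box. So did 7 of 7 higher in ly_B and 30 of all 39 with a window. For the CCAAT box these counts were 5 of 9, 4 of 7 and 22 of 39, and for the E-box 1 of 9, 2 of 7 and 6 of 39. No share by gene was counted over all genes, and a gene with more windows has more chances of a match. The 32851 windows were not limited to genes tested here. The ER stress element was in none of the member windows and in 0.119% of all windows, and the sterol response element was in 3 of the 57 and in 1.24% of all windows. These 3 windows belong to 2 genes, Pla2g12a and Pcyt1a, since overlapping Pcyt1a windows share 1 site.

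Genes that exchange or alter the head group were called in both directions by smaller amounts. Pemt, the hepatic enzyme that methylates phosphatidylethanolamine to phosphatidylcholine, was 1.47-fold higher in ly_A by the authors' deposited table (log2 0.55, adjusted p = 0.008). Ptdss2, which makes phosphatidylserine from phosphatidylethanolamine, was 1.48-fold higher in ly_A in that table (log2 0.56, adjusted p = 0.0315). Pisd, which turns phosphatidylserine back into phosphatidylethanolamine in mitochondria, was 1.59-fold higher in ly_B by the authors' deposited table (log2 -0.67, adjusted p = 0.0395). Ptdss1, which uses phosphatidylcholine instead, did not pass there (log2 0.04, adjusted p = 0.905).

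The lipins, phosphatidate phosphatases that make the diacylglycerol used for phospholipids and triglycerides, did not move together. Lpin1 was 6.21-fold higher in ly_A by the authors' deposited table (log2 2.64, adjusted p = 0.000443). Lpin2, a form abundant in liver, was 2.67-fold higher in ly_A in that table (log2 1.42, adjusted p = 0.000394). Lpin3 was 1.69-fold higher in ly_B by the authors' deposited table (log2 -0.75, adjusted p = 0.0172). This Lpin3 call ended when the adjusted p had to be under 0.01, and those of Lpin1 and Lpin2 stayed. Lpin1 had the second-largest log2 fold change of the called members. Its promoter window (chr12:16610917-16611216, GRCm38.p6, minus strand) is shown because it held 0 matches to the 6 motifs, which says only that these letters are not in this window. It has 2 CpG dinucleotides, against 38 in the window of Etnk1 and 21 in that of Etnk2.
Lpin1: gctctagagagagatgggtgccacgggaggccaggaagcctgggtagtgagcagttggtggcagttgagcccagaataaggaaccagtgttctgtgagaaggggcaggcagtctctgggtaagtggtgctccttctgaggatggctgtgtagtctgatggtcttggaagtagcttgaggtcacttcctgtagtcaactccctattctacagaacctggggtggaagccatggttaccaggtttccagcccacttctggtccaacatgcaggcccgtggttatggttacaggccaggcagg

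Before the lipins, glycerol 3-phosphate is made and acylated. Agpat1, which adds the second acyl chain to lysophosphatidate, was 1.75-fold higher in ly_A by the authors' deposited table (log2 0.80, adjusted p = 0.0164). Its relatives Agpat3 (log2 0.03, adjusted p = 0.91) and Agpat5 (log2 -0.07, adjusted p = 0.864) did not pass there. Gpd1l, a relative of the cytosolic glycerol-3-phosphate dehydrogenase, was 1.58-fold higher in ly_B by the authors' deposited table (log2 -0.66, adjusted p = 0.00402). Gpd1, the cytosolic dehydrogenase itself, stood at log2 -0.18 (adjusted p = 0.598) and the mitochondrial Gpd2 at -0.55 (adjusted p = 0.0971) in that table. Gnpat, the peroxisomal acyltransferase that starts ether lipid synthesis, stood at -0.25 there (adjusted p = 0.372). On the branch that makes acidic phospholipids, the CDP-diacylglycerol synthase Cds2 was 1.70-fold higher in ly_B by the authors' deposited table (log2 -0.76, adjusted p = 0.011). Its paralogue Cds1 stood at log2 1.03 without passing (adjusted p = 0.239), as did the cardiolipin synthase Crls1 at 0.15 (adjusted p = 0.588), in the authors' deposited table.

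**Figure D2:**
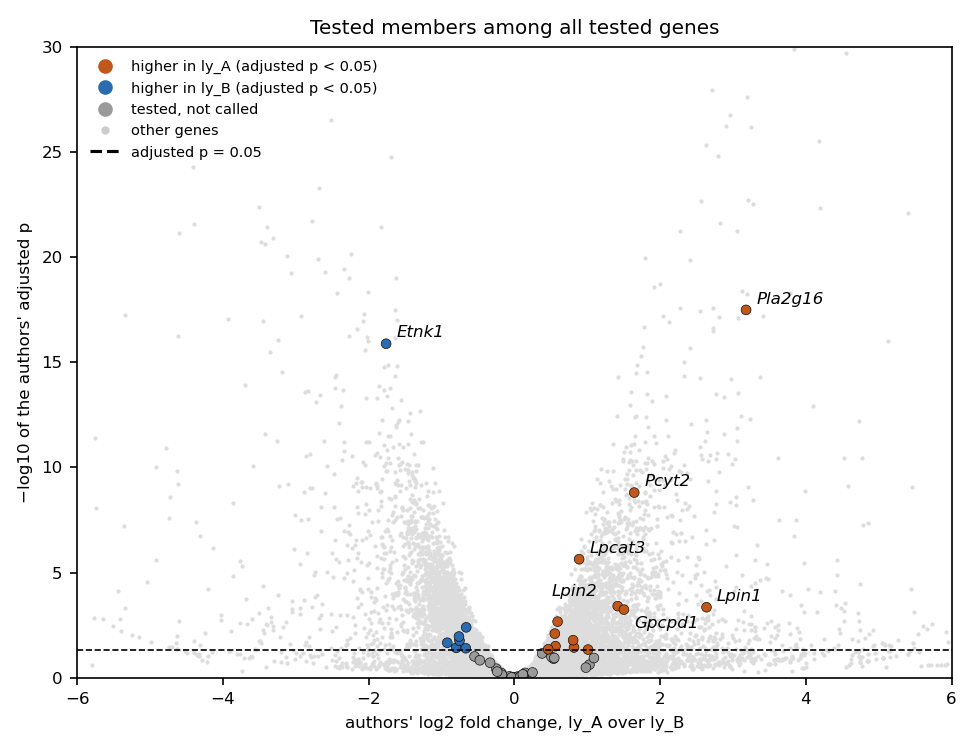
Authors' log2 fold change (ly_A over ly_B, x axis) against −log10 of the authors' adjusted p (y axis) for the tested members, drawn over all other tested genes in light grey; 69 genes lie outside the frame. Members with an adjusted p under 0.001 are named, and Pla2g16 and Etnk1 stand highest on the right and left.

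Of 6 tested acyl chain remodelling genes, 2 (33.3%) were higher in ly_A and 0 in ly_B, beside 18.1% and 17.7% of all tested genes. Lpcat3, which puts polyunsaturated acyl chains into lysophosphatidylcholine and is a target of the oxysterol receptor LXR in liver, was 1.85-fold higher in ly_A by the authors' deposited table (log2 0.89, adjusted p = 2.3e-06). Lpcat2, an enzyme of inflammatory cells that can also make platelet-activating factor, was 2.01-fold higher in ly_A in that table, close to the threshold (log2 1.01, adjusted p = 0.0459). Its call ended when p-values were adjusted over every row (adjusted p = 0.0534). The surfactant enzyme Lpcat1 (log2 -0.17, adjusted p = 0.73), Lpcat4 (log2 -0.04, adjusted p = 0.963) and the lysophospholipid acyltransferase Mboat1 (log2 0.98, adjusted p = 0.331) were not called in the authors' deposited table. Lcat, which the liver secretes and which forms cholesteryl esters on lipoproteins from phosphatidylcholine, stood at log2 0.38 there (adjusted p = 0.0698).

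The Lpcat3 promoter window (chr6:124662854-124663153, GRCm38.p6, plus strand) is shown because this remodelling gene had the smallest adjusted p of its step, with the same 6 motifs in capitals.
Lpcat3: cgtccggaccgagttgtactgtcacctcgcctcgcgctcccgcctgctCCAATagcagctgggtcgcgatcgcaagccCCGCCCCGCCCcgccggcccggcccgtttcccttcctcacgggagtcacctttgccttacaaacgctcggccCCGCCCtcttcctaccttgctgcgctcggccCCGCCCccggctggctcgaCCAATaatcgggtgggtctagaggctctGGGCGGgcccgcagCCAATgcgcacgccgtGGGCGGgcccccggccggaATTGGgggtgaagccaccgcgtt
It held 10 matches, namely GC boxes and CCAAT boxes, and GC content was 71.0%.

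Of 7 tested phospholipases A2, which release a fatty acid and leave a lysophospholipid, 1 (14.3%) was called, beside 35.8% of all tested genes. Pla2g16, an intracellular enzyme best known from fat tissue, was 9.05-fold higher in ly_A by the authors' deposited table (log2 3.18, adjusted p = 3.19e-18). This was the largest difference and the smallest adjusted p among the called members. Pla2g4a, the cytosolic enzyme that frees arachidonate, stood at log2 1.09 without passing in the authors' deposited table (adjusted p = 0.115). Likewise not called there were the lysosomal Pla2g15 (log2 0.55, adjusted p = 0.114) and the calcium-independent Pla2g6 (log2 0.51, adjusted p = 0.103). Pla2g7, which inactivates platelet-activating factor and is made by macrophages, stood at log2 0.08 in the authors' deposited table (adjusted p = 0.843). Among secreted-type genes, Pla2g12a stood at log2 -0.24 (adjusted p = 0.512) and Pla2g12b at -0.33 (adjusted p = 0.194) in that table.

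Breakdown beyond the first acyl chain held 3 more calls, all higher in ly_A. They were 3 of 5 tested phospholipase B, lysophospholipase and glycerophosphodiesterase genes (60%), and 0 of 2 tested phospholipases D were called. Among all tested genes, 18.1% were higher in ly_A and 17.7% in ly_B. Gpcpd1, which splits glycerophosphocholine into choline and glycerol 3-phosphate, was 2.83-fold higher in ly_A by the authors' deposited table (log2 1.503, adjusted p = 0.000577). Lypla1 and Lypla2 encode lysophospholipases that also remove acyl chains from proteins. Lypla1 was 1.51-fold higher in ly_A by the authors' deposited table (log2 0.59, adjusted p = 0.00215), and Lypla2 was 1.38-fold higher (log2 0.46, adjusted p = 0.0445). This Lypla2 call ended when p-values were adjusted over every row (adjusted p = 0.0517). Pnpla6 (log2 0.12, adjusted p = 0.734) and Pnpla7 (log2 0.12, adjusted p = 0.692), phospholipases that deacylate phosphatidylcholine and lysophosphatidylcholine, were not called in the authors' deposited table. Pld1 (log2 -0.48, adjusted p = 0.148) and Pld2 (log2 0.25, adjusted p = 0.564), the phospholipases D that release choline and leave phosphatidate, were not called there either.

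Other genes of the same pathway, from lists of 67 symbols, gave 51 tested genes. Of these, 13 (25.5%) were higher in ly_A and 5 (9.80%) in ly_B by the authors' deposited table, beside 18.1% and 17.7% of all tested genes. Among other synthesis genes, 5 of 21 (23.8%) were higher in ly_A and 3 (14.3%) in ly_B, counted from that table. Agpat2, the main acyltransferase of lysophosphatidate in fat and liver, was higher in ly_A by a log2 fold change of 0.999 in the authors' deposited table (adjusted p = 7.34e-06). Dgat2, which makes triglyceride from diacylglycerol, was 1.72-fold higher in ly_A in that table (log2 0.78, adjusted p = 0.000337). The choline transporter-like Slc44a2 (log2 0.84, adjusted p = 0.0037) and the glycerol-3-phosphate acyltransferase Gpat4 (log2 0.72, adjusted p = 0.0311) were also higher in ly_A by the authors' deposited table. Plpp2, a phosphatidate phosphatase, was 2.57-fold higher in ly_B (log2 -1.36, adjusted p = 8.68e-10), and Pgs1, an early enzyme of cardiolipin synthesis, 2.24-fold (log2 -1.17, adjusted p = 1.43e-06) in the authors' deposited table. Cdipt, the phosphatidylinositol synthase, was 1.68-fold higher in ly_B there (log2 -0.74, adjusted p = 0.00163).

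Of 7 other remodelling and transfer genes, 3 (42.9%) were higher in ly_A and 2 (28.6%) in ly_B by the authors' deposited table. Of all tested genes, 18.1% and 17.7% were. Pltp, which moves phospholipids between plasma lipoproteins, was 3.79-fold higher in ly_A there (log2 1.92, adjusted p = 1.2e-09). Taz, the cardiolipin remodelling enzyme tafazzin, was 1.80-fold higher in ly_A by the authors' deposited table (log2 0.85, adjusted p = 0.000613). Pla1a, a phospholipase that acts on phosphatidylserine, was 1.43-fold higher in ly_A in that table (log2 0.52, adjusted p = 0.042). Lpgat1, an acyltransferase of the endoplasmic reticulum, was 1.95-fold higher in ly_B by the authors' deposited table (log2 -0.96, adjusted p = 0.000149), and Mboat7, which puts arachidonate into phosphatidylinositol, 1.42-fold (log2 -0.51, adjusted p = 0.0371). Abcb4, the transporter that moves phosphatidylcholine into bile, did not pass there (log2 0.03, adjusted p = 0.921). Of 23 other tested phospholipases and related hydrolases, 5 (21.7%) were higher in ly_A and 0 in ly_B by the authors' deposited table. The 4 largest differences among the called genes were those of endothelial lipase, Lipg (log2 2.74, adjusted p = 1.26e-08), the lysosomal phospholipase B-like Plbd1 (log2 2.41, adjusted p = 2.04e-16), hepatic lipase, Lipc (log2 1.22, adjusted p = 5.02e-08) and the triglyceride lipase Pnpla2 (log2 0.92, adjusted p = 0.0138) in the authors' deposited table.

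**Figure D3:**
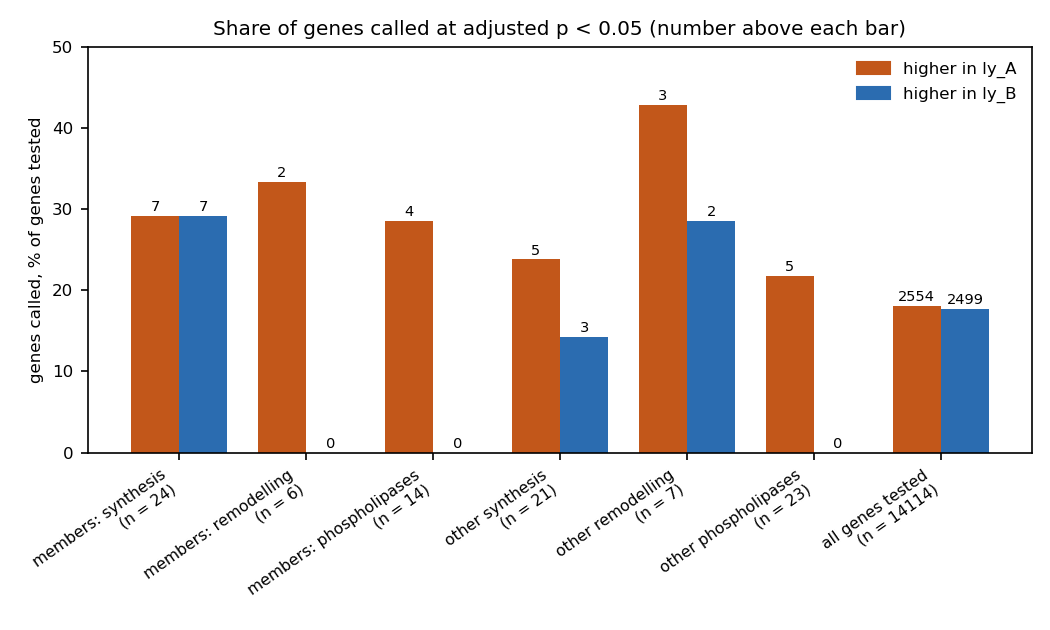
Genes called at an adjusted p under 0.05 as a percentage of genes tested, for the members by kind of step, the other genes of the pathway and all tested genes; orange bars are genes higher in ly_A, blue bars genes higher in ly_B, and the number of genes stands above each bar. Of 14 phospholipase members, 4 (28.6%) were higher in ly_A, and of 23 other phospholipases and related hydrolases, 5 (21.7%), beside 18.1% of all tested genes. Of both, 0 were higher in ly_B, beside 17.7% of all tested genes. Of 7 other remodelling and transfer genes, 3 were higher in ly_A and 2 in ly_B, while synthesis members held 7 in each direction. The bars of other phospholipases include lipases such as Pnpla2, and those of other remodelling genes include Pltp, Abcb4 and the phospholipase Pla1a.

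Markers of cell types also differed between the sets, and bulk RNA cannot tell fewer cells of a type from less RNA per cell. The marker counts stand beside 18.1% of all tested genes higher in ly_A and 17.7% higher in ly_B. Of 9 hepatocyte markers, 5 were higher in ly_A and 0 in ly_B by the authors' deposited table, with the largest differences in Glul (log2 5.06) and Cyp2e1 (log2 3.88), genes of the hepatocytes around the central vein, and then in Apoa1 (log2 1.22) and Ttr (log2 1.07). Alb (log2 0.19, adjusted p = 0.565), Hnf4a (log2 -0.05, adjusted p = 0.876), Cps1 (log2 -0.52, adjusted p = 0.133) and Tat (log2 1.03, adjusted p = 0.178) were not called in that table. Kupffer cell markers were higher in ly_A for 4 of 6, namely Timd4 (log2 3.04), Clec4f (log2 2.63), Vsig4 (log2 1.76) and Cd5l (log2 0.99), by the authors' deposited table. Endothelial markers were higher in ly_A for 6 of 7, led by Vwf (log2 1.89), Stab2 (log2 1.77), Kdr (log2 1.25) and Clec4g (log2 1.20), in that table. T and NK cell markers were higher in ly_A for 4 of 7, namely Cd4 (log2 2.43), Klrb1c (log2 2.22), Nkg7 (log2 1.99) and Cd3e (log2 1.80), by the authors' deposited table. The B cell markers Cd79a (log2 1.62) and Cd79b (log2 1.47) were also higher in ly_A in that table. None of the lists of Kupffer cell, endothelial and T and NK cell markers held a gene higher in ly_B in that table. Of 7 tested markers of recruited macrophages, 2 were higher in ly_B, Gpnmb (log2 -4.93) and Lgals3 (log2 -2.80), and 0 in ly_A in that table. Single markers were higher in ly_B for cholangiocytes (Sox9, log2 -1.68, 1 of 6 markers) and stellate cells (Pdgfrb, log2 -0.67, 1 of 8 tested) in the authors' deposited table. Of 4 tested neutrophil markers, 0 were called in that table. The part of these shifts in the values of the members was not tested.

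Transcript length moved with the direction of the calls, in the members and in all genes. By the longest transcript in GENCODE M21, members called higher in ly_A had a median of 2507 bases and members called higher in ly_B a median of 4391 bases. Over all genes the medians were 2412 bases for those called higher in ly_A and 3825 bases for those called higher in ly_B by the authors' deposited table. Above the median length of 3069 bases, 5 of 22 tested members (22.7%) were higher in ly_A and 5 (22.7%) in ly_B, beside 12.8% and 23.3% of all tested genes of that length. Up to that length, 8 of 22 (36.4%) were higher in ly_A and 2 (9.09%) in ly_B, beside 23.3% and 12.1% of all tested genes. Of the 6 members higher in ly_A by at least 2-fold, 4 were longer than the median, namely Lpin1 (5581 bases), Lpin2 (5640 bases), Gpcpd1 (3703 bases) and Pla2g16 (3523 bases), and 2 were shorter, namely Pcyt2 (1881 bases) and Lpcat2 (2811 bases). Etnk1, the 1 member higher in ly_B by at least 2-fold, was longer (6433 bases). The part of length in the members' values was not tested.

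**Figure D4:**
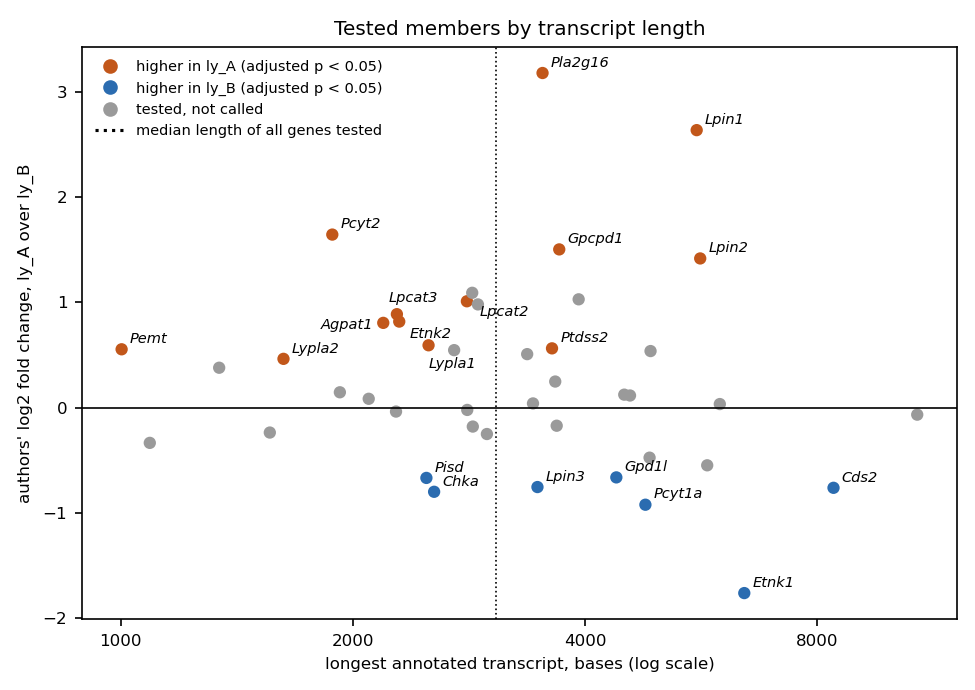
Longest annotated transcript of each tested member in bases (x axis, log scale) against the authors' log2 fold change, ly_A over ly_B (y axis), with called members named and the dotted line at the median length of all tested genes, 3069 bases. Of the 7 members higher in ly_B, 5 lie right of the line; of the 13 higher in ly_A, 5 do.

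For 20 of the 47 members, 8 of them called, annotated exons overlap those of another gene. Among them are Chka, Pcyt1a, Etnk1 and Pisd, which make up 4 of the 7 members higher in ly_B. The other called members with an overlap, Agpat1, Lypla1, Lpcat2 and Lpcat3, were higher in ly_A. Whether the libraries keep strand is not given in the sources used here, so reads in the shared bases cannot be told apart. Any shared base was counted as an overlap, and some overlaps are short beside the gene. Etnk1 shares 201 exonic bases (longest transcript 6433 bases) and Chka 74 (longest transcript 2549 bases), each with an antisense gene model that has no row in the deposited table. Pcyt1a shares 567 exonic bases with Slc51a on the other strand, which was not called by the authors' deposited table (log2 1.96, adjusted p = 0.274). Agpat1 shares 100 with Egfl8, which was higher in ly_A there like Agpat1 (log2 1.56, adjusted p = 0.0201). Pisd shares 1156 with an overlapping gene model on its own strand, and Lypla1 shares 629 with another on its own strand. Of 26 tested members with no such overlap, 9 (34.6%) were higher in ly_A and 3 (11.5%) in ly_B by the authors' deposited table, against 18.1% and 17.7% of all tested genes. The shares of all tested genes were not limited to genes without an overlap, since overlaps were sought for the members only.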

How the data were processed

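The deposited data are 1 table for the whole series, with a row per gene symbol. It holds the authors' log2 fold change, p-value and adjusted p-value for the comparison of 2 sets of 3 libraries, as deposited and named per the file headers. DESeq2 (version not stated) and the build mm9 come from the submitters' processing notes; the aligner, counter and annotation are not named in the sources used here. Trizol was used for RNA extraction and a NEBNext kit for the libraries, per the labels' protocols. The set names match no label, so the single-library columns were not used in any calculation, and read depth was not examined. In all, 18 columns other than the gene name and the authors' comparison values were left unused. Nothing in the labels says that the replicates are separate animals, so p-values measure only the spread between these libraries, which may be technical. The sign follows the order in the comparison's name, and the first lines of the table, read by eye, showed positive values where the ly_A columns were higher.

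Recomputing a Benjamini-Hochberg adjustment over 14114 rows gave the deposited adjusted p to within a relative 9.47e-13; the other 2312 of 16426 rows, with an adjusted p of 1, were treated as not tested. The adjustment was tested on simulated data. Counts and medians were computed with Python 3.11.15 and pandas 2.3.3. Folds are 2 to the power of the deposited log2 values. Promoter windows are from RefSeq (GRCm38.p6) and transcript lengths from GENCODE M21, both matched by symbol. The members and lists were chosen with earlier results of these data known. Values are given for every tested member and for the largest called differences of each other list, up to 4 per direction, except that 1 B cell marker is not reported here; Abcb4, Alb, Hnf4a, Cps1, Tat, Nr1h3, Srebf1, Ptgs2, Slc51a and Egfl8 were named after their values were seen. As alternatives, the threshold was set to 0.01, a 2-fold change was required, p-values were adjusted over every row, and values were centred on the median of all genes.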

Additional observations from a re-analysis of the deposited data

How the results depend on the processing

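At an adjusted p under 0.01, 8 members were higher in ly_A and 2 in ly_B, of 12.3% and 12.7% of all tested genes; the 8 were Pcyt2, Pemt, Lpin1, Lpin2, Lpcat3, Pla2g16, Lypla1 and Gpcpd1, and the 2 were Etnk1 and Gpd1l. When a 2-fold change was required, 6 were on the ly_A side and 1 on the ly_B side. Adjusted over every row, 11 and 7 were, and 18 of the 20 called members kept their call. Among members without an exon overlap, an alternative chosen after seeing the data, 9 were higher in ly_A and 3 in ly_B. Synthesis members numbered 4 in ly_A and 2 in ly_B at an adjusted p under 0.01, 3 and 1 when a 2-fold change was required, 7 and 7 adjusted over every row, and 6 and 3 without an exon overlap; remodelling and phospholipase members numbered 4, 3, 4 and 3 in ly_A under these settings and 0 in ly_B under each. These counts by kind of step were added after seeing the data. For the other genes of the pathway, counts were 8 in ly_A and 4 in ly_B at an adjusted p under 0.01, and 4 and 2 when a 2-fold change was required. The median log2 fold change of the members was 0.15 with the members not tested included, 0.49 without those with an exon overlap and 0.06 after centring. Centring on the median of all genes, a shift of 0.07, turned the direction of none of the 20 called members. No paired analysis was possible because the library columns carry no label that ties them to a replicate number of a group. Leaving out single libraries, another normalization and another filter on low counts were not run. The single-library columns, which match no label, were not used in any calculation. How far read depth limits any gene was not examined.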

Other observations

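Ether lipids, phospholipids with an alkyl or alkenyl chain, start in peroxisomes. Of 8 genes of this branch, 2 (25%) were higher in ly_A and 1 (12.5%) in ly_B by the authors' deposited table. Among all tested genes the shares were 18.1% and 17.7%. Tmem86b, which degrades lysoplasmalogens, was higher in ly_A (log2 0.92, adjusted p = 0.00453), as was Tmem189, the desaturase that forms plasmalogens (log2 0.83, adjusted p = 0.00674), in the authors' deposited table. Agps, which follows Gnpat in the branch, was higher in ly_B there (log2 -0.68, adjusted p = 0.00836). Eicosanoids and platelet-activating factor are signals made from lipids that phospholipases release. Of 20 tested genes of these signals, 4 (20%) were higher in ly_A and 2 (10%) in ly_B by the authors' deposited table, beside the same shares of all tested genes. The prostaglandin D synthase Ptgds (log2 3.93, adjusted p = 0.000335), leukotriene C4 synthase, Ltc4s (log2 1.55, adjusted p = 0.0276), cyclooxygenase Ptgs1 (log2 1.001, adjusted p = 0.0054) and the prostaglandin-degrading Hpgd (log2 0.60, adjusted p = 0.00305) were higher in ly_A by the authors' deposited table. Higher in ly_B were Ptafr, the receptor of platelet-activating factor (log2 -1.96, adjusted p = 0.000756), and Pafah1b2, a subunit of its intracellular hydrolase (log2 -0.79, adjusted p = 0.000106), in that table. The inducible cyclooxygenase Ptgs2 did not pass there at a fitted log2 of -4.34 (adjusted p = 0.0945).

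Of 12 regulators known to act on genes of this pathway, 5 (41.7%) were higher in ly_A and 1 (8.33%) in ly_B by the authors' deposited table. Over all tested genes these shares were 18.1% and 17.7%. The coactivators Ppargc1b (log2 1.65, adjusted p = 0.0103) and Ppargc1a (log2 0.85, adjusted p = 0.0394) were higher in ly_A there. So were the bile acid receptor Nr1h4 (log2 1.45, adjusted p = 3.72e-08), Insig2 (log2 0.93, adjusted p = 0.00694) and Nr1h3, a form of LXR (log2 0.57, adjusted p = 0.0163), in the authors' deposited table. The glucocorticoid receptor Nr3c1 was higher in ly_B there (log2 -0.91, adjusted p = 3e-07). Srebf1, which drives fatty acid synthesis, was 1 of 6 regulators not called by the authors' deposited table (log2 0.17, adjusted p = 0.544). Whether any of these regulators acted on a member in these samples was not tested.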
